A study of Mus musculus with 6 samples.

Results

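The transcripts described here encode the core of the RNA silencing and microRNA (miRNA) machinery: the nuclear processing pair Drosha and Dgcr8, the export receptor Xpo5, the cytoplasmic nuclease Dicer1, the Argonautes Ago1, Ago2, Ago3 and Ago4, and the scaffolds Tnrc6a and Tnrc6b. They were chosen by gene name, as the rows of the deposited table that carry these 10 symbols among 55416 gene rows. The rule used no measured value, but the list was written with earlier results of these data known. All 10 passed the filter for low counts of the test.

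RNA was sequenced from primary chondrocytes, the cells that make cartilage matrix, which came from the knee joints of neonatal mice per the labels (the supplementary methods name mice of 8 to 10 weeks) and were grown in DMEM/F12 medium with serum. The cells carried either siNC, a scrambled control siRNA, or siPkm2, an siRNA against the pyruvate kinase gene Pkm, with 3 libraries per group. For siRNA transfection in general, the supplementary methods give a dose of 50 nM and a check of knockdown at 48 h. For the sequencing they refer to earlier work. Both groups therefore held a transfected RNA duplex, and cells without an siRNA were not analysed here. The genotype labels of siPkm2 replicates 2 and 3 name other PKM numbers, while all 3 titles name siPKM2, so the groups were taken from the titles. Nothing in the labels says that the 3 libraries of a group came from separate animals, so p-values measure the spread between these libraries, which may be technical.

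In the canonical pathway, DROSHA and its RNA-binding partner DGCR8 cut a hairpin out of the primary miRNA transcript in the nucleus, exportin-5 carries it to the cytoplasm, and DICER1 cuts it to a short duplex. An Argonaute keeps one strand of the duplex as a guide, reads target mRNAs through the guide's seed, and recruits a TNRC6 (GW182) protein, which brings in deadenylation and decapping enzymes. A synthetic siRNA enters at the Argonaute step, and AGO2 is the Argonaute known for cutting a fully paired target. In cartilage, loss of Dicer1 is known to disturb chondrocyte growth and differentiation, and miR-140, carried within the Wwp2 gene, is the miRNA best known from chondrocytes.

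The siRNA strands that enter this pathway are shown first, 5′ to 3′, with the seed (positions 2 to 8 of the strand) in capitals. They are the designed control and the third of 3 designed siPkm2 duplexes. The supplementary text names the third as the one selected for the study, but no source ties a numbered siRNA to the sequenced cultures.

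siNC sense: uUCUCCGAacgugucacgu
siNC antisense: aCGUGACAcguucggagaa
siPkm2 #3 sense: cAUGCUGUcuggagaaaca
siPkm2 #3 antisense: uGUUUCUCcagacagcaug

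The sense strand of siPkm2 #3 matches the Pkm gene in 1 place, at chr9:59672010-59672028 on the plus strand of GRCm38, in exon 8 of the transcripts Pkm-201 and Pkm-202. That target, written as DNA and in capitals because every base pairs with the antisense strand, is shown for reference.

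Pkm target of siPkm2 #3: CATGCTGTCTGGAGAAACA

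Pkm itself checked the labels. Its level was 2335, 2746 and 1674 CPM (counts scaled to the library total, with TMM factors) in siNC, and 336, 541 and 309 CPM in siPkm2, here and throughout in the order of replicates 1, 2 and 3. The 3 siPkm2 libraries all lay below the 3 siNC libraries. Total counts ran from 22317065 to 25691096 per library. Replicate 2 of both groups stood apart from the other libraries along the first principal component, which held 54.2% of the variance, and had the lowest summed level of 10 chondrocyte markers, 11236 and 15721 CPM against 45162 to 54143 CPM in the other 4 libraries. Libraries with the same replicate number deviated together from their group means, with correlations across genes of 0.72 to 0.79, so the fit with the replicate number as a block is reported wherever its call differed.

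By length-corrected level, the Tnrc6a transcript was the most abundant of the 10 and the Ago4 transcript the least. On the deposited TPM scale (transcript abundance corrected for length and depth), the mean level over the 6 libraries was 38.4 for Tnrc6a, 27.6 for Xpo5, 26.6 for Ago2, 22.2 for Dgcr8, 19.1 for Ago1, 18.2 for Drosha, 15.3 for Dicer1, 9.72 for Tnrc6b, 9.25 for Ago3 and 2.67 for Ago4. Among all genes tested, Tnrc6a stood at the 75.7th percentile of mean TPM and Ago4 at the 21.8th. Tnrc6a lay above Xpo5 in 6 of 6 libraries, and Ago3 above Ago4 in 6 of 6. Most other neighbours in this order were not separated by the spread between libraries: Xpo5 exceeded Ago2 in 4 of 6, Ago2 exceeded Dgcr8 in 4, Ago1 exceeded Drosha in 4, Drosha exceeded Dicer1 in 4, and Tnrc6b exceeded Ago3 in 3. Dgcr8 lay above Ago1 in 5 of 6, and Dicer1 above Tnrc6b in 5 of 6. When CPM per kilobase of the longest annotated transcript was used in place of TPM, 6 of the 10 kept their rank, and Xpo5 and Ago2 exchanged places, as did Ago1 and Drosha.

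**Figure D1:**
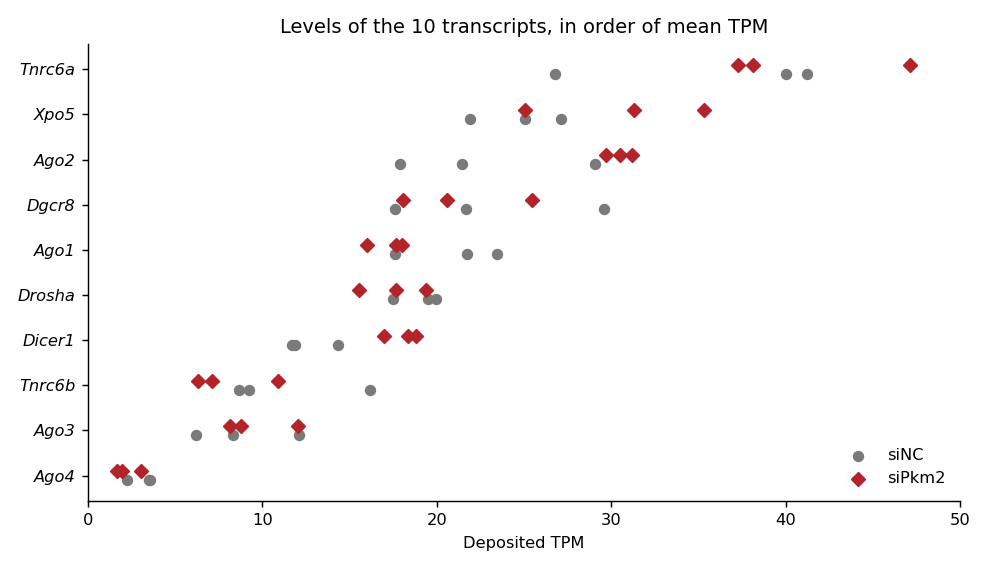
Deposited TPM of each of the 10 transcripts (horizontal axis) in the 3 siNC libraries (grey circles) and the 3 siPkm2 libraries (red diamonds), ordered by the mean over all 6. Tnrc6a lay highest, between 26.8 and 47.1 TPM, and Ago4 lowest, between 1.67 and 3.57 TPM, while neighbours in the order from Xpo5 to Drosha overlapped.

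The 2 nuclear processing transcripts were nearly level between the groups, whereas Dicer1, which acts after them, was higher in every siPkm2 library. Drosha (ENSMUSG00000022191, chr15:12824815-12935291, plus strand of GRCm38), the nuclease of the Microprocessor, was at 55.8, 44.9 and 53.7 CPM in siNC, and at 55.6, 42.3 and 49.3 CPM in siPkm2. Each siPkm2 library lay slightly below its siNC counterpart, and the groups overlapped. The log2 fold change of Drosha was -0.07 (95% interval -0.45 to 0.31), with an adjusted p of 0.863 by the quasi-likelihood (QL) test of edgeR, Benjamini-Hochberg adjusted over 15269 genes. With the replicate block it was -0.07 (SE 0.08, adjusted p = 0.526, same test). Dgcr8 (ENSMUSG00000022718, chr16:18253948-18289246, minus strand), whose product binds the primary hairpin, was at 51.2, 36.6 and 62.1 CPM in siNC and 50.2, 41.7 and 59.6 CPM in siPkm2. Replicate 2 was the lowest library in both groups, and the groups overlapped almost completely. Dgcr8 overlaps Trmt2a on the opposite strand, which had a mean count of 975, and the counting by strand is not known here. For Dgcr8 the log2 fold change was 0.02 (95% interval -0.55 to 0.58, adjusted p = 0.983, edgeR's QL test). Under the block it was 0.03 (SE 0.09, adjusted p = 0.808, same test). The sign of both small differences depended on the libraries or scaling used. In these bulk libraries, a lower level could come from fewer cells of a type or from less of the RNA per cell, which cannot be told apart.

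Xpo5 (ENSMUSG00000067150, chr17:46202782-46243598, plus strand) encodes exportin-5, which carries precursor hairpins out of the nucleus. It was at 83.1, 62.0 and 81.0 CPM in siNC, and at 115.6, 74.0 and 99.4 CPM in siPkm2. The groups overlapped because replicate 2 was low in both, yet each siPkm2 library exceeded the siNC library of the same number, by 0.48, 0.26 and 0.30 on the log2 scale. Without a block its log2 fold change was 0.35 (SE 0.21, adjusted p = 0.431, edgeR's QL test). With the replicate block it was 0.34 (SE 0.08) and passed, with an adjusted p of 0.0409 by the same test. Under the block with upper-quartile factors the adjusted p was 0.0642, and under the block with replicate 1 or replicate 3 left out it was 0.236 or 0.201, all by edgeR's QL test. With replicate 2 left out it was 0.0147 by that test.

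Dicer1 (ENSMUSG00000041415, chr12:104687742-104751952, minus strand), the nuclease that cuts precursor hairpins and long double-stranded RNA to short duplexes, had the largest log2 fold change of the 10 in the fits with and without the block. Tnrc6b was larger in size with upper-quartile factors (-0.62 against 0.53 for Dicer1) and with the block added to them (-0.59 against 0.53). Tnrc6b was also larger in size without siNC replicate 1, siNC replicate 2 or siPkm2 replicate 3, and with the block without replicate 2. Ago2 was larger without siNC replicate 2 and with the block without replicate 2, and Ago4 was larger in size without siNC replicate 1. The level of Dicer1 was 68.3, 64.2 and 81.7 CPM in siNC, and 111.5, 96.7 and 115.1 CPM in siPkm2. The lowest siPkm2 library stood above the highest siNC library, and replicate 2 was the lowest in each group. The mean was 71.4 ± 9.14 CPM for siNC and 108 ± 9.75 CPM for siPkm2 (SD, n = 3 each), a 1.51-fold difference. An exact permutation test (two-sided, 3 against 3) gave p = 0.1, the smallest it allows. The log2 fold change was 0.59 (SE 0.15), with an unadjusted p of 0.00568 and an adjusted p of 0.143 (edgeR's QL test). With the replicate block it was 0.60 (SE 0.08), and Dicer1 rose at an adjusted p of 0.0142 by the same test. DESeq2's Wald test gave an adjusted p of 0.0497 without the block and 3.21e-05 with it. Under edgeR's block fit with replicate 1 or replicate 3 left out, the adjusted p of Dicer1 was 0.0943 or 0.106, and with replicate 2 left out it was 0.00317. On the TPM scale, Dicer1 was at 11.7, 11.9 and 14.3 in siNC and 18.8, 17.0 and 18.4 in siPkm2, again without overlap. The ratio of Dicer1 to Drosha TPM, a pairing chosen with the values known, was 0.601, 0.678 and 0.718 in siNC and 0.971, 1.09 and 1.04 in siPkm2.

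**Figure D2:**
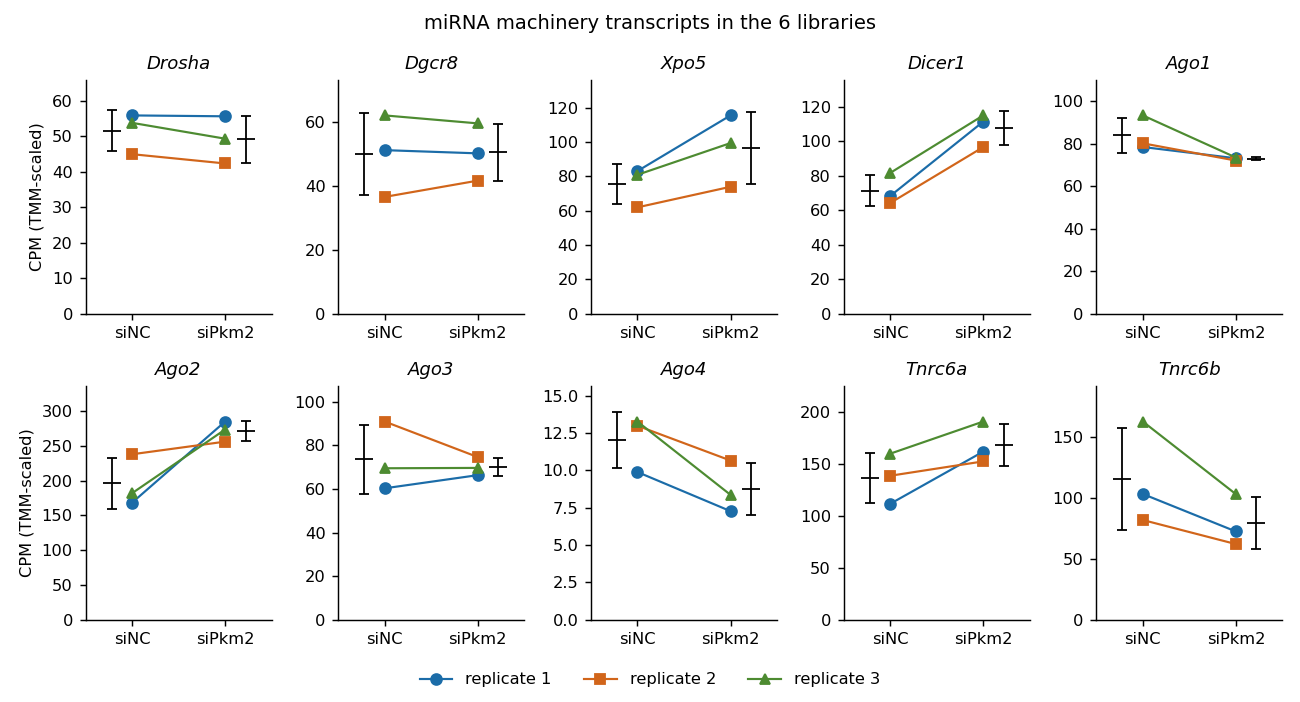
CPM of each transcript (vertical axis, TMM-scaled, starting at 0) in siNC and siPkm2, with lines joining libraries of the same replicate number and black bars giving the mean and SD of 3 libraries. Dicer1 and Ago2 had no overlap between the groups on the higher side and Ago1 none on the lower side, while the lines of Drosha and Dgcr8 were nearly flat.

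Among the Argonautes, Ago2 was higher in siPkm2, Ago1 and Ago4 lay lower, and Ago3 did not move in 1 direction, but no Argonaute passed the adjusted threshold of edgeR's test with or without the block. Ago2 (ENSMUSG00000036698, chr15:73095844-73184935, minus strand), the Argonaute with slicer activity, was at 168, 238 and 182 CPM in siNC, and at 285, 256 and 274 CPM in siPkm2. All siPkm2 libraries were above all siNC libraries, but siNC replicate 2 came close to its siPkm2 counterpart, with a log2 ratio of 0.11 in pair 2 against 0.76 and 0.59 in pairs 1 and 3. The log2 fold change of Ago2 was 0.47 (SE 0.18), with an unadjusted p of 0.0373 and an adjusted p of 0.250 by edgeR's QL test. The block gave 0.48 and an adjusted p of 0.0626 by that test, and 0.0139 by DESeq2's Wald test. With replicate 2 left out of edgeR's block fit, the log2 fold change was 0.66 and the adjusted p 0.00201. Part of the Ago2 locus overlaps Chrac1 on the opposite strand, which had a mean count of 514, and whether reads were counted by strand is not given in the sources used here.

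Ago1 (ENSMUSG00000041530, chr4:126435012-126468583, minus strand), which binds guides but is known as a weak slicer, was at 78.4, 80.1 and 93.3 CPM in siNC and 73.1, 72.0 and 73.4 CPM in siPkm2. All 3 siPkm2 libraries were below the lowest siNC library and lay within a narrow range, but on the TPM scale the groups overlapped, at 17.6 to 23.5 in siNC and 16.02 to 18.01 in siPkm2. The log2 fold change of Ago1 was -0.20 (95% interval -0.49 to 0.08, adjusted p = 0.431, edgeR's QL test). The block gave -0.20 (SE 0.09, adjusted p = 0.144, same test). Ago3 (ENSMUSG00000028842, chr4:126331704-126429556, minus strand), which neighbours Ago1, was at 60.3, 90.9 and 69.5 CPM in siNC and 66.3, 74.6 and 69.6 CPM in siPkm2. It was highest in replicate 2 of both groups, and the groups overlapped. Its log2 fold change was -0.07 (95% interval -0.49 to 0.35, adjusted p = 0.886, edgeR's QL test), and -0.05 with the block (SE 0.11, adjusted p = 0.758, same test). Ago4 (ENSMUSG00000042500, chr4:126489541-126533472, minus strand), the scarcest Argonaute, was at 9.89, 13.0 and 13.3 CPM in siNC and 7.27, 10.7 and 8.36 CPM in siPkm2. Each siPkm2 library of Ago4 lay below its siNC counterpart, by 0.44, 0.28 and 0.67 on the log2 scale, but siPkm2 replicate 2 exceeded siNC replicate 1. Its log2 fold change was -0.46 (SE 0.23, adjusted p = 0.364, edgeR's QL test). With the block the estimate was also -0.46, at a smaller SE of 0.14 and an adjusted p of 0.0681 by the same test. Ago4 rested on 156 to 321 reads per library, the fewest of the 10, and passed only under the block with replicate 2 left out (adjusted p = 0.0312, same test).

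The shares of Ago1, Ago2 and Ago4 in the Argonaute pool did not overlap between the groups, while the sum of the pool and the TPM of Ago1 and of Ago4 did. Summed over the 4 genes, the Argonaute TPM was 55.7 ± 11.3 for siNC and 59.6 ± 2.53 for siPkm2 (SD, n = 3 each), with overlapping libraries. Of that sum, Ago2 took 40.7%, 43.8% and 37.8% in siNC and 54.1%, 47.6% and 52.0% in siPkm2. Ago1 took 40.1%, 32.7% and 41.4% in siNC and 27.8%, 28.3% and 30.7% in siPkm2. Neither share overlapped between the groups: the share of Ago2 was higher and that of Ago1 lower in all siPkm2 libraries. The share of Ago4 was also lower, from 5.14% to 6.22% in siNC and from 2.90% to 4.84% in siPkm2, whereas the share of Ago3, 15.6% ± 2.23 and 16.1% ± 2.84 (SD, n = 3), overlapped. The ratio of Ago2 to Ago1 TPM was 1.02, 1.34 and 0.913 in siNC against 1.95, 1.68 and 1.69 in siPkm2. An exact two-sided permutation test gave p = 0.1, its lowest possible value here, for the shares of Ago1, Ago2 and Ago4 and for this ratio, and 0.7 for Ago3. These shares are not independent of each other or of the levels above, and they were chosen with the values known. A larger Ago2 part lowers the other shares by construction. By TPM itself, Ago2 alone of the 4 did not overlap. Of the 15269 genes tested, 1514 were higher and 1973 lower in siPkm2 without overlap by TPM.

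The GW182 scaffolds differed in direction. Tnrc6a (ENSMUSG00000052707, chr7:123123885-123195296, plus strand) was at 112, 139 and 160 CPM in siNC, and at 162, 153 and 191 CPM in siPkm2, higher in each pair but with overlap between the groups. The log2 fold change of Tnrc6a was 0.30 (SE 0.18, adjusted p = 0.445, edgeR's QL test). With the block it was 0.31, at a smaller SE of 0.10 and an adjusted p of 0.0858 by the same test. On the TPM scale, pair 2 of Tnrc6a fell on the other side of 0, at a log2 ratio of -0.07. Tnrc6a passed only under the block with replicate 2 left out (log2 fold change 0.39, adjusted p = 0.0201, edgeR's QL test). Tnrc6b (ENSMUSG00000047888, chr15:80711313-80941085, plus strand) was at 103, 81.7 and 162 CPM in siNC and at 72.3, 62.0 and 103 CPM in siPkm2. Replicate 3 was the highest and replicate 2 the lowest in both groups, and the groups overlapped, yet each siPkm2 library lay below its counterpart by 0.51, 0.40 and 0.66 on the log2 scale. For Tnrc6b the log2 fold change was -0.55 (SE 0.31, adjusted p = 0.410, edgeR's QL test). Under the block it was -0.52 (SE 0.09), and Tnrc6b fell at an adjusted p of 0.0185 by the same test. With replicate 1 or replicate 3 left out of the block fit, its adjusted p was 0.109 or 0.147, and with replicate 2 left out 0.00249. The third family member, Tnrc6c, had a log2 fold change of -0.21 (adjusted p = 0.721, edgeR's QL test).

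Of the summed TNRC6 TPM, Tnrc6a took 56.2% ± 7.35 in siNC and 66.0% ± 1.97 in siPkm2, Tnrc6b 17.4% ± 3.08 and 12.9% ± 1.80, and Tnrc6c 26.4% ± 4.31 and 21.1% ± 0.434 (SD, n = 3 each). The shares of Tnrc6a and Tnrc6b overlapped between the groups, because siNC replicate 2 had a Tnrc6a share of 64.6%, inside the siPkm2 range. The share of Tnrc6c did not overlap, and its highest siPkm2 value, 21.4%, differed from the lowest siNC value by less than 0.01 percentage points. The exact two-sided permutation p was 0.2 for Tnrc6a and Tnrc6b and 0.1 for Tnrc6c.

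**Figure D3:**
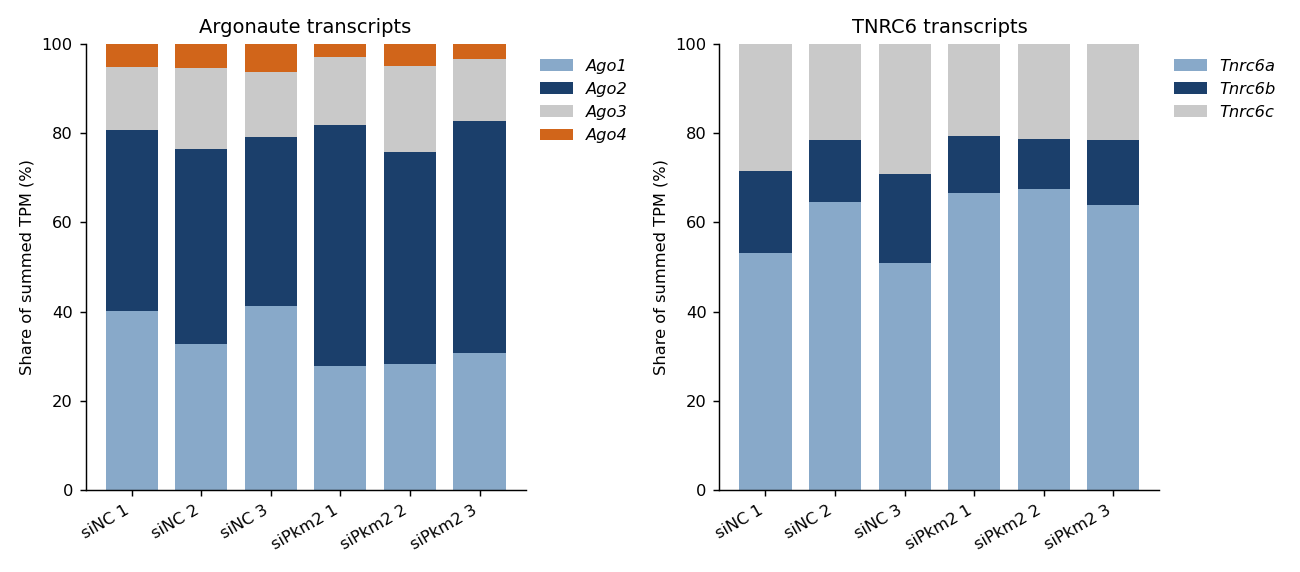
Share of each gene in the summed TPM of the Argonaute transcripts (left) and of the TNRC6 transcripts (right), in percent, for each of the 6 libraries. The Ago2 part of the bar is 37.8% to 43.8% in siNC and 47.6% to 54.1% in siPkm2, and the Tnrc6a part is 50.9% to 64.6% in siNC and 63.8% to 67.6% in siPkm2.

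Counted over the 10 transcripts, 0 members passed the adjusted p of 0.05 in edgeR's QL test without the block, where 0.0% of all genes tested passed, with or without the added threshold of a 2-fold change. Pkm, the target of the siRNA, did not pass there either. At an unadjusted p under 0.05, 2 members (Ago2 and Dicer1) stood beside 17.6% of all genes. With the replicate block, 3 members passed, Dicer1 and Xpo5 higher and Tnrc6b lower, and 23.1% of all genes passed, 12.3% higher and 10.8% lower. None of the 3 reached a 2-fold change, which 5.83% of all genes did along with the adjusted threshold. DESeq2's Wald test called Dicer1 without the block, where it called 5.38% of genes, and Dicer1, Xpo5, Tnrc6b and Ago2 with it, where it called 25.8%. Without regard to a test, Ago2 and Dicer1 were higher with no overlap between the groups, as were 12.0% of all genes, and Ago1 was lower with no overlap, as were 12.3%. Ago2, Dicer1, Tnrc6a and Xpo5 were higher in all 3 pairs, as were 30.5% of genes, and Ago1, Ago4, Drosha and Tnrc6b were lower in all 3, as were 30.6%. The median absolute log2 fold change was 0.33 over the 10 and 0.32 over all genes tested, and the median was -0.03 and -0.02. Under edgeR's block fit with replicate 2 left out, 6 members passed (Dicer1, Ago2, Xpo5 and Tnrc6a higher, Tnrc6b and Ago4 lower) beside 39.1% of genes, and with replicate 1 or replicate 3 left out 0 members passed beside 0.0% of genes. In the size of their differences, the 10 transcripts were close to the background of these libraries.

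**Figure D4:**
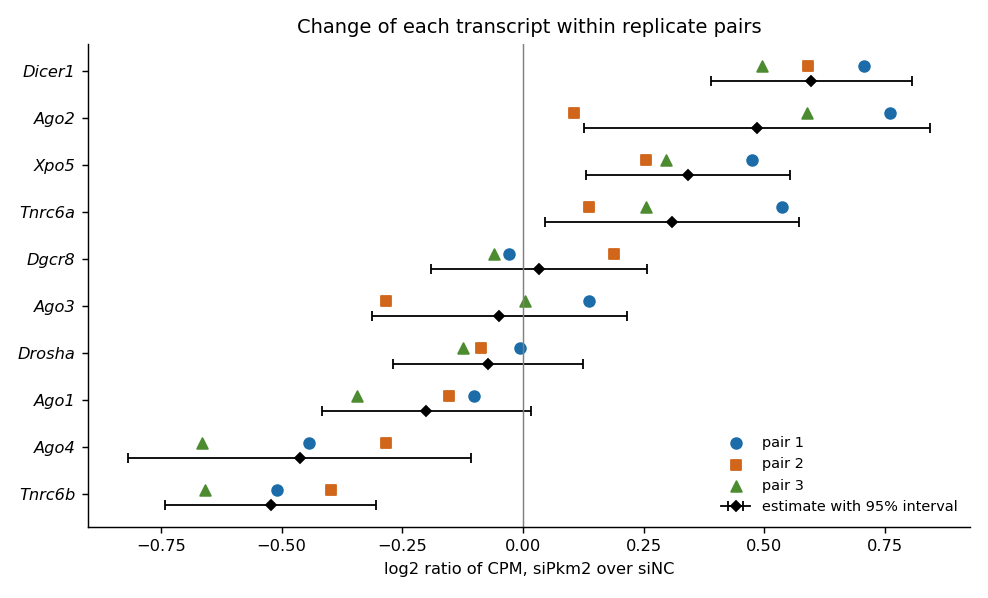
Log2 ratio of CPM, siPkm2 over siNC, within each pair of libraries of the same replicate number (colored symbols), with the estimate of edgeR's fit with the replicate block and its 95% interval (black). Dicer1, Ago2, Xpo5 and Tnrc6a lay above 0 in all 3 pairs and Tnrc6b, Ago4, Ago1 and Drosha below 0, with pair ratios of Dicer1 from 0.49 to 0.71.

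The 3′ untranslated regions of the 10 transcripts differed widely in length. The longest annotated region held 12742 bases in Ago3, 11609 in Tnrc6b and 11064 in Ago2, against 169 in Drosha and a median of 1407 over the genes tested. The letters GAGAAAC, which pair with positions 2 to 8 of the siPkm2 #3 antisense strand, were sought on the transcript strand of these regions only. They occurred in 3 of the 10 (Ago4, Tnrc6a and Tnrc6b) and in 17.9% of the 13273 tested genes with such a region. That share was not matched for length, and the regions of Ago4, Tnrc6a and Tnrc6b were long. They exceeded those of 88.1%, 85.5% and 99.8% of the genes. The shorter region of the transcript Tnrc6b-208, of 532 bases, held no match. The sites are shown with 8 bases on either side and the seed match in capitals, on GRCm38, because they are the matches to the guide seed of siPkm2 #3. They bear on these cultures only if that siRNA was the one used, and the other 2 designs have matches of their own in members.

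Ago4, chr4:126492827-126492833, minus strand, 3′ untranslated region of Ago4-201: gtgggagaGAGAAACcaaacggc
Tnrc6a, chr7:123169738-123169744, plus strand, 3′ untranslated region of Tnrc6a-210: gagtcagaGAGAAACatcactgt
Tnrc6b, chr15:80935317-80935323, plus strand, 3′ untranslated region of Tnrc6b-201: actgcaaaGAGAAACcttgttct

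Of the transcripts with these letters, Ago4 and Tnrc6b lay lower in siPkm2 (log2 fold change -0.46 and -0.55) and Tnrc6a higher (0.30). The match to the siPkm2 #3 sense strand, ACAGCAT, occurred in Ago2, Dgcr8 and Tnrc6b and in 14.2% of genes. For the control duplex, the match to the sense seed, TCGGAGA, occurred in Ago2 and in 2.77% of genes, and that to the antisense seed, TGTCACG, in no member and in 3.51%. The 3′ untranslated regions of Ago1, Ago3, Drosha, Xpo5 and Dicer1 held none of these letters. Such a match is a description of sequence, and its part in any level was not tested.

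Beside the 10, 7 lists of pathway genes were examined, of which 85 genes were tested. Of the 85, 54 had a positive log2 fold change, as did 7341 of the 15269 genes tested, none passed without the block, and with the block 12 rose and 6 fell, or 21.2% against 23.1% of all genes. At an unadjusted p under 0.05 there were 11 (edgeR's QL test without the block), beside 17.6% of all genes tested. DESeq2's Wald test called 6 without the block, beside 5.38% of genes. The calls with the block depended on which pairs were kept. With replicate 1 or replicate 3 left out 0 of the 85 passed, as did 0 of all genes. With replicate 2 left out 31 passed, beside 39.1% of all genes. These lists were written with earlier results of the data known.

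Of the partners of Dicer and of Argonaute loading, 12 of 14 were above 0, with a median log2 fold change of 0.21. With the block 4 rose and 1 fell, where 12.3% of all genes rose and 10.8% fell (edgeR's QL test, here and for the other lists). Dnaja1, a co-chaperone of the heat shock machinery that opens Argonautes for loading, was at 171, 169 and 157 CPM in siNC and 286, 227 and 254 CPM in siPkm2, a log2 fold change of 0.62 with the block (adjusted p = 0.0175). Ran, the GTPase that drives exportin-5, rose by 0.49 (adjusted p = 0.0263), Snd1, a Tudor nuclease, by 0.35 (adjusted p = 0.0368), and Tsn, a subunit of the C3PO nuclease, by 0.34 (adjusted p = 0.0407). Prkra, which encodes the Dicer partner PACT, went the other way, from 36.0, 29.9 and 31.3 CPM to 20.2, 23.0 and 18.8 CPM, and fell by 0.65 (adjusted p = 0.0228). Tarbp2, the other double-stranded RNA-binding partner of Dicer, had a log2 fold change of 0.07 with the block (adjusted p = 0.630). Snd1 and Tsn did not pass under the block with upper-quartile factors. Hspa8, Hsp90aa1 and Tnrc6c passed only under the block with replicate 2 left out.

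Microprocessor cofactors were nearly level, with 8 of 11 above 0 and a median of 0.03. Only Erh, a small DGCR8-binding cofactor, passed with the block (log2 fold change 0.33, adjusted p = 0.0373). Erh did not pass under the block with upper-quartile factors. The helicase Ddx5 had a log2 fold change of -0.21 (adjusted p = 0.136), the RNA-binding protein gene Hnrnpa1 0.31 (adjusted p = 0.119) and Safb2 0.29 (adjusted p = 0.0858), all with the block in edgeR's QL test.

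Among deadenylation genes, 9 of 18 were above 0 and the median was 0.00, but the members that passed with the block moved both ways. Pan2, the catalytic subunit of the PAN2-PAN3 deadenylase that TNRC6 proteins recruit, was at 32.1, 34.1 and 33.7 CPM in siNC and 18.3, 20.3 and 18.8 CPM in siPkm2. Cnot8, a catalytic subunit of the CCR4-NOT complex, was at 76.1, 67.4 and 75.3 CPM in siNC and 48.3, 46.4 and 48.9 CPM in siPkm2. Neither gene overlapped between the groups, and with the block Pan2 fell by 0.80 (adjusted p = 0.0119) and Cnot8 by 0.61 (adjusted p = 0.0133) in edgeR's QL test. Tob1 and Btg1, antiproliferative adaptors of the same complex, rose by 0.88 (adjusted p = 0.0308) and 0.90 (adjusted p = 0.0204). Pan3 and Btg2 passed only with replicate 2 left out of the block fit, and Cnot6 only in the block fit with upper-quartile factors.

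Decapping and P-body genes lay above 0 in 11 of 16, with a median of 0.09. Mov10, an RNA helicase that associates with Argonautes, rose with the block by 0.67 (adjusted p = 0.0276), although its groups overlapped, with siNC replicate 2 at 85.3 CPM and siPkm2 replicates 1 and 3 at 71.5 and 62.1 CPM. Dcp1b, a scarce decapping cofactor at 6.55 to 6.97 CPM in siNC and 2.66 to 4.24 CPM in siPkm2, fell by 1.03 (adjusted p = 0.0301, edgeR's QL test with the block). Dcp1a, Patl1, Lsm14a, Xrn1 and Gigyf2 passed only under the block with replicate 2 left out, and Dcp2 only under the block with upper-quartile factors. Lsm14b, a P-body protein gene, had a log2 fold change of 0.20 (adjusted p = 0.148, edgeR's QL test with the block).

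Of the genes for turnover of miRNAs and their precursors, 8 of 11 were tested and 5 were above 0. With the block 3 rose and 1 fell, where 12.3% of all genes rose and 10.8% fell. Zswim8, the adaptor of the ubiquitin ligase that removes Argonautes in target-directed miRNA decay, was at 145, 128 and 182 CPM in siNC and 205, 199 and 239 CPM in siPkm2, and rose by 0.51 (adjusted p = 0.0200, edgeR's QL test). Pnpt1, an exoribonuclease also known as an interferon-induced gene, rose by 0.71 (adjusted p = 0.0148), and Xrn2, a nuclear exonuclease, by 0.40 (adjusted p = 0.0271). Tent2, which adds bases to the ends of miRNAs, fell by 0.43 (adjusted p = 0.0226, edgeR's QL test). Lin28a, the inhibitor of let-7 maturation, had a count of 0 in all 6 libraries. Of the 6 genes of the germline piRNA machinery, only Piwil2 was tested, at 0.366 to 1.17 CPM.

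These libraries held few reads of miRNA genes themselves: of 1124 rows annotated as miRNA genes, 40 had at least 1 count and 2 were tested. Transcripts that host miRNAs lay above 0 in 9 of 17 tested. Wwp2, the host of miR-140, was at 450, 102 and 490 CPM in siNC and 471, 209 and 497 CPM in siPkm2, low in replicate 2 of both groups, with a log2 fold change of 0.37 with the block (adjusted p = 0.258, edgeR's QL test). Mir22hg, the host of miR-22, rose by 0.47 with the block (adjusted p = 0.0228, same test). Egfl7, which carries miR-126 and marks endothelial cells, fell by 1.02 (adjusted p = 0.0294, same test). It was at 3.20 to 6.67 CPM in siNC and 1.40 to 3.73 CPM in siPkm2. The other endothelial markers tested, Tek and Vwf, went the other way with the block, by 1.00 and 0.73 (adjusted p = 0.188 and 0.250, same test). Both were scarce, at 2.01 CPM or less. Copz1 had a log2 fold change of 0.27 (adjusted p = 0.0626, same test). H19, Dnm3os and Mir99ahg passed only under the block with replicate 2 left out.

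**Figure D5:**
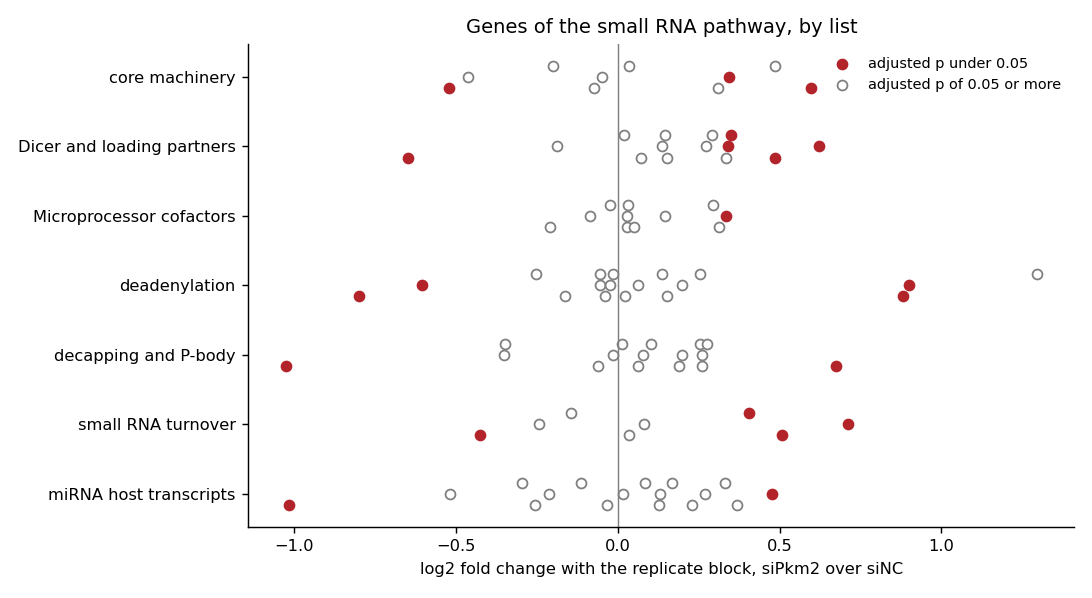
Log2 fold change with the replicate block (horizontal axis, siPkm2 over siNC) of each tested gene in the core machinery and in 6 pathway lists, with filled red circles where the adjusted p of edgeR's QL test was under 0.05. The called genes lie on both sides of 0 in every list but that of the Microprocessor cofactors, whose only called gene, Erh, is at 0.33.

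Levels of other gene groups that moved with the libraries are given beside these results. The summed level of 20 interferon-stimulated genes was 168, 3115 and 218 CPM in siNC, and 2073, 5547 and 1681 CPM in siPkm2. All 20 had a positive log2 fold change, as did 7341 of the 15269 genes tested. Without the block 0 passed in edgeR's QL test, and 0 were at an unadjusted p under 0.05, beside 17.6% of all genes. With the block 9 rose, beside 12.3% of all genes (same test). Replicate 2 of siNC, the control library with the highest interferon sum, also had the highest Ago2 of the siNC libraries, whereas replicate 2 of siPkm2, with the highest interferon sum of all 6, had the lowest Ago2 of the siPkm2 libraries. Dicer1, in contrast, was lowest in replicate 2 of each group. The part of the interferon genes in the levels of the 10 transcripts was not tested. Of 9 macrophage markers, 6 (Ptprc, Adgre1, C1qa, C1qb, Tyrobp and Itgam) were under 1 CPM in every library, and the summed level was 7.73 to 61.0 CPM in siNC and 10.1 to 38.6 CPM in siPkm2. The 6 endothelial markers, of which Pecam1, Cdh5 and Kdr were under 1 CPM, summed to 4.88 to 9.30 CPM and 4.43 to 7.08 CPM, 7 muscle markers to 6.47 to 8.41 CPM and 6.53 to 13.3 CPM, 7 osteoblast markers to 76.1 to 482 CPM and 82.1 to 209 CPM, and 7 synovial fibroblast markers to 8703 to 16076 CPM and 5861 to 11824 CPM, each in siNC and siPkm2 in that order.

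For Dicer1, the member with the largest absolute log2 fold change under TMM factors with all 6 libraries, the genes whose log2 CPM followed it most closely over the 6 libraries were H4c8 (Pearson r 0.999), Ube4a (0.998) and Slc25a16 (0.998). They were the highest of all genes tested, and with 6 libraries that fall into 2 groups such values describe these libraries only. Ube4a, a ubiquitin ligase gene, was at 73.7, 71.1 and 86.1 CPM in siNC and 112, 103 and 117 CPM in siPkm2. H4c8, a histone gene, reached at most 2.29 CPM.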

How the data were processed

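RNA selection and strand of the Illumina libraries, made from Trizol-extracted total RNA, are not given in the sources used here, nor are the aligner and the counting tool; the submitters' processing notes name mm9 and edgeR without a role. The authors deposited estimated counts per gene, not normalized and partly fractional, and TPM values for each library. They also deposited group means and their own comparison (fold change, log2 fold change, p-value and adjusted p-value), which were not used.

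Estimated counts were rounded and analysed in R 4.3.3. Genes were kept by filterByExpr in edgeR 4.0.16 (15269 of 55416), scaled by TMM factors and compared by the quasi-likelihood (QL) test without a block; p-values were adjusted after Benjamini and Hochberg over the tested genes, and this code was tested on simulated data. The 95% intervals use the standard error and degrees of freedom of that test. A gene passed at an adjusted p under 0.05. Alternatives were the replicate number as a block, RLE and upper-quartile factors, a minimum of 10 counts in each library, no filter, DESeq2 1.42.0 with and without the block, limma 3.58.1 on log2(TPM + 1), and each library left out. Added after the data were seen were the block without each replicate number and with the other factors. DESeq2 sets its own filter, so its percentages are over the genes with an adjusted p.

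The labels number replicates 1, 2 and 3 in both groups. Same-numbered libraries deviated together (r = 0.716, 0.794 and 0.720), and different numbers had r from -0.700 to 0.217, so the numbers were taken as pairs on the evidence of the data. No 2 libraries of a group were duplicates: 52.6% to 73.4% of genes differed beyond sampling noise.

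Positions, transcripts and 3′ untranslated regions (at least 50 bases, longest per gene) came from GENCODE M21 on GRCm38 by Ensembl identifier, of which 52083 matched; the deposited table holds no coordinates. siRNA sequences came from a supplementary table and are given without their TT overhangs. The members and lists were chosen with earlier results of these data known. All 10 members are named; of each pathway list the 4 genes with the lowest unadjusted p and any gene with an adjusted p under 0.05 in any fit; and the 3 genes most correlated with the member of the largest difference. Tarbp2, Wwp2 and Lin28a were named after their values were seen.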

Additional observations from a re-analysis of the deposited data

How the results depend on the processing

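The members' calls depended on the pairing. Members at an adjusted p under 0.05 numbered 0 in edgeR's fit without a block, 3 with the replicate block, 1 and 4 with DESeq2 without and with it, and 2 to 3 with the block and upper-quartile or RLE factors. Left out in turn, single libraries gave 0 members throughout, and with the block the count was 6 without replicate 2 and 0 without replicate 1 or 3, where 0 genes of any kind passed. Over all genes, those at an adjusted p under 0.05 numbered 0, against 3524 with the block, 3556 and 3539 with the block and RLE or upper-quartile factors, 829 and 3868 with DESeq2 without and with the block, 3 with upper-quartile factors, 9 with no filter, 3 at 10 counts or more, 1 with limma on TPM, 0 to 105 with 1 library left out (105 without siNC replicate 2), and 0 to 5941 with the block and 1 replicate number left out. With the 2-fold threshold added, the counts were 890, 900, 935, 430 and 1028 in the same order, 3, 9, 3 and 1, 0 to 105, and 0 to 1639. Pathway genes went from 0 to 18 with the block, 18 and 17 with RLE or upper-quartile factors, 6 and 18 with DESeq2, and 0 to 31 with a replicate number left out. Of the TPM order, 6 of 10 ranks were kept by CPM per kilobase. The cause of these changes was not tested.

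Ago1, Ago2, Ago4, Xpo5, Dicer1, Tnrc6a and Tnrc6b kept their direction under all 19 alternatives each. Ago3 reversed with limma on TPM (0.14), without siNC replicate 2 (0.12) and with the block without replicate 2 (0.061). Drosha reversed without siPkm2 replicate 2 (0.030). Dgcr8 reversed with upper-quartile factors (-0.054), limma (-0.082), without siNC replicate 2 (-0.16) or siPkm2 replicate 3 (-0.12), and with the block without replicate 2 (-0.053) or with upper-quartile factors (-0.034). With 1 library left out, log2 fold changes ran from 0.53 to 0.70 for Dicer1, 0.38 to 0.63 for Ago2, 0.20 to 0.52 for Xpo5, 0.18 to 0.43 for Tnrc6a, -0.78 to -0.22 for Tnrc6b, -0.62 to -0.34 for Ago4, -0.24 to -0.12 for Ago1, -0.18 to 0.12 for Ago3, -0.17 to 0.03 for Drosha and -0.16 to 0.20 for Dgcr8. Among the members Ago4 had the fewest counts, and with 3 libraries a group an exact permutation test cannot go below 0.1.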
